A study of Mus musculus with 13 samples.

Results

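The genes described here are the chemokines and chemokine receptors of the mouse, 37 of the 17924 genes in the count tables. They were chosen by symbol alone: every Ccl, Cxcl, Ccr or Cxcr gene with a number, and Cx3cl1, Cx3cr1, Xcl1, Xcr1 and Ackr1 to Ackr4. Of these genes, 23 are ligand genes and 14 are receptor genes, the atypical ones included. Cxcl11, counted with the ligands, is annotated as a polymorphic pseudogene. Of the 37 genes, 36 passed the limit on low counts and were tested. The same rule gives 62 symbols in GENCODE mouse release 21, and the other 25, among them Ccl3, Ccl4, Ccl5, Ccr7, Cxcr3 and Cxcr5, were not analysed here.

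The libraries were made from whole muscles of *mdm* mice of a B6C3Fe a/a-Ttn mdm/J colony, which carry a deletion in the titin gene that causes a progressive muscular dystrophy with myositis. The groups were EDL (extensor digitorum longus, n = 5, aged 38 or 42 days) and psoas (n = 5, aged 29, 38 or 42 days), both fast muscles, and the slow soleus (n = 3, aged 33, 36 and 38 days). All 13 libraries come from mutant mice with no treatment named, so each comparison is between muscles of mutant mice, and wild-type libraries were not analysed here. The sex is given for 6 of the libraries, and each library has a code from T1 to T6, listed under condition and not explained: T4 holds EDL 2, psoas 2 and soleus 1 and 2, T5 holds EDL 3 and psoas 3, T6 holds EDL 4 and 5, psoas 4 and 5 and soleus 3, and EDL 1 and psoas 1 stand alone in T1 and T3.

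Chemokines are small secreted proteins that guide leukocytes along gradients, and most act through receptors coupled to G proteins on the migrating cell. Inflammatory chemokines are induced in damaged tissue and recruit monocytes, neutrophils or T cells, whereas homeostatic chemokines such as Ccl21 and Cxcl12 are made without injury by stromal or endothelial cells. Atypical receptors, the Ackr genes, bind chemokines without classical signalling and remove or transport them. In whole muscle, fewer cells of a type and less RNA per cell cannot be told apart.

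Total counts ran from 9114176 to 48835209 per library, and 1987 to 16826 reads of a library fell on the 37 genes. Values below are normalized counts, which are read counts divided by the size factor of the library, unless another scale is named. The library psoas 2 stood apart for these genes, with member reads summing to 714 CPM (counts scaled to the library total) against 165 to 378 in the other 12, and its summed normalized count of 13 macrophage markers was 15838, against 3299 to 9371 in the others. A gene was called where edgeR's quasi-likelihood test, adjusted over all genes tested, gave p under 0.01 with a log2 fold change above 1 or below -1. The comparisons of psoas and of soleus with EDL share the 5 EDL libraries, and the labels do not tie libraries to single mice. Of the 36 members, 2 were called in psoas against EDL, where 4.93% of all genes tested were called and 2.43% were called as higher in psoas. In soleus against EDL, 2 members were called, against 0.978% of all genes, with 0.533% called as higher in soleus. In both comparisons the 2 were Ccl21a and Ccl21b, which share most of their sequence, so they are not 2 independent results. In soleus against psoas, 0 of 36 members were called by edgeR and also 0 by DESeq2 and by limma, against 0.0762% of all genes in the edgeR fit, and 8 of 36 had an unadjusted p under 0.05, against 12.7% of all genes.

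**Figure D1:**
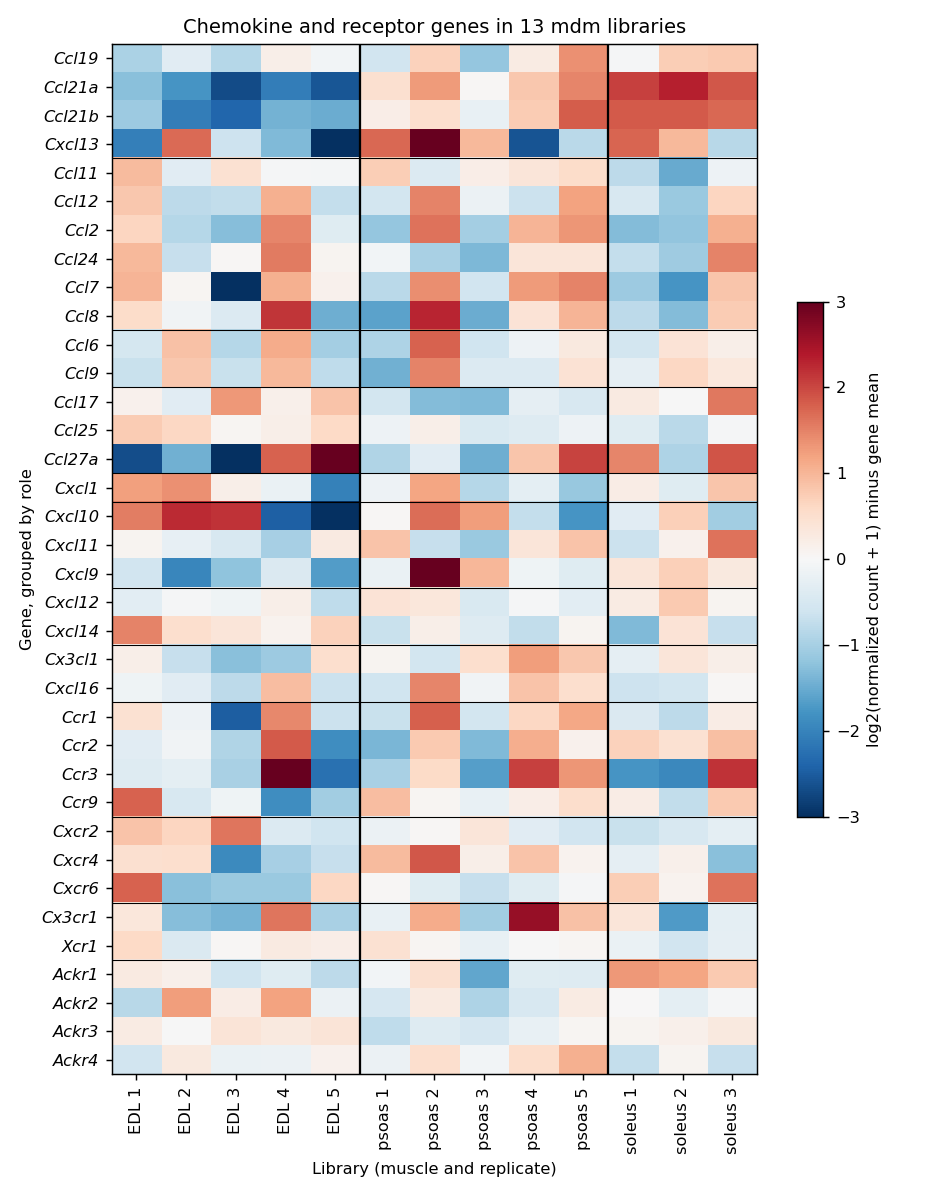
Heat map of 36 of the 37 genes (rows, grouped by role) in the 13 libraries (columns); colour is log2(normalized count + 1) minus the mean of the gene, from blue (lower) to red (higher). Ccl21a and Ccl21b are blue in the 5 EDL libraries and red in the 3 soleus libraries, and the column of psoas 2 has the darkest red for Cxcl13 and Cxcl9.

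The genes called were Ccl21a and Ccl21b, which encode the ligand that lymphatic vessels and lymphoid stroma use to attract dendritic cells and T cells bearing Ccr7. Both were higher in psoas and in soleus than in EDL. They lie on chromosome 4 of GRCm38, Ccl21a (ENSMUSG00000094686) at chr4:42772860-42773993 on the reverse strand and Ccl21b (ENSMUSG00000095675) at chr4:42255767-42256432 on the forward strand, each with 4 exons.

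The table also holds 3 entries of nearly the same sequence on chromosome 4, which the symbol rule does not take in and which were chosen after the values of Ccl21a had been seen. They are Gm21541 at chr4:41903610-41904743, Gm13304 at chr4:42114817-42115917 and Gm10591 at chr4:42612195-42612860, all on the forward strand, and by its position the first is the gene RefSeq names Ccl21d. The sequences below are shown because they set how far reads of these entries can be told apart. Along its 402 annotated bases, all coding, Ccl21b differs from Ccl21a at 2 positions, T159A and C269T, counted from 1 at the 5′ end of the Ccl21a transcript with the Ccl21a base first. These lie in exon 2 and exon 3, at positions 42773747 and 42773543 of chromosome 4 for Ccl21a, and at 42255938 and 42256142 for Ccl21b. The stretches of 61 bases around both sites, from the GENCODE transcripts and with the differing base in capitals, read:
Ccl21a at T159A: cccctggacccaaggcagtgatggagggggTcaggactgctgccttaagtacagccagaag
Ccl21b at T159A: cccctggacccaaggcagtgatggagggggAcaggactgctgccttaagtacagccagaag
Ccl21a at C269T: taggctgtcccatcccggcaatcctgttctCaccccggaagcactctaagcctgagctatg
Ccl21b at C269T: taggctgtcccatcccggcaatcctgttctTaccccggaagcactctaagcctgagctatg

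All other bases of the Ccl21b entry are those of Ccl21a, and Gm10591 is identical to Ccl21b over its 402 bases. Of the 328 windows in the Ccl21b transcript that are 75 bases long, the length of a mate of a read pair, 54.3% were found in Ccl21a and 100% in at least 1 of the other 4 entries. The transcript of Gm21541 differs from that of Ccl21a at 6 of 870 bases. The sequence in front of Ccl21a and Gm21541 is as close, and its part in their counts was not tested. The 250 bases before the start of Ccl21a (chr4:42773992-42774241, reverse strand) and of Gm21541 (chr4:41903363-41903612, forward strand), from RefSeq on GRCm38.p6, align over 249 bases with 1 difference, in capitals:
Ccl21a: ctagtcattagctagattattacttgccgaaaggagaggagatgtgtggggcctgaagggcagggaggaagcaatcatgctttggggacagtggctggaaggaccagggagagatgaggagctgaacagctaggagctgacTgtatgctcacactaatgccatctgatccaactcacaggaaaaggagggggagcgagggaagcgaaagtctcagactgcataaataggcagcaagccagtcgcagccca
Gm21541: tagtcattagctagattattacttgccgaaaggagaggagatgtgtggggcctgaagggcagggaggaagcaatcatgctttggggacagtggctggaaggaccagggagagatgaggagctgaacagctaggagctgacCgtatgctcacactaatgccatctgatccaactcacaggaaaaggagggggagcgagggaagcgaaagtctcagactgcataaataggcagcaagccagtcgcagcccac

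Normalized counts of Ccl21a were 54.9, 38.3, 19.9, 30.5 and 21.6 in EDL 1 to 5, then 185, 324, 136, 232 and 367 in psoas 1 to 5, and 554, 666 and 485 in soleus 1 to 3. The 3 muscles did not overlap: each soleus library lay above each psoas library, and each psoas library above each EDL library. Means were 33.0 ± 14.3 in EDL (SD, n = 5), 249 ± 95.6 in psoas (n = 5) and 568 ± 91.2 in soleus (n = 3). The log2 fold change in psoas against EDL was 2.85 (SE 0.32, edgeR adjusted p = 0.000654), a 7.21-fold difference. In soleus against EDL it was 4.05 (SE 0.35, edgeR adjusted p = 8.54e-05), a 16.6-fold difference. Within the codes that hold both muscles, the log2 difference between psoas and EDL lay between 2.68 in T5 and 3.44 in T6, and that between soleus and EDL was 3.92 in T4 and 4.18 in T6. Soleus against psoas gave 1.20 (SE 0.33, edgeR adjusted p = 0.134) and was not called, with 0.92 within T4 and 0.73 within T6.

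Ccl21b showed the same order on fewer reads. Its normalized counts in EDL were 11.1, 5.10, 3.98, 8.71 and 8.12, made from 26, 8, 2, 8 and 6 reads, so EDL 3 was under the floor of 3 counts. In psoas they were 28.4, 35.2, 21.1, 42.6 and 90.4, and in soleus 91.0, 91.4 and 84.2. Every psoas and every soleus library lay above every EDL library, while psoas 5 reached the range of soleus. The log2 fold change was 2.49 (SE 0.41, edgeR adjusted p = 0.00232) in psoas against EDL and 3.53 (SE 0.45, edgeR adjusted p = 0.0012) in soleus against EDL. With the replicate number as a block, the latter was 3.71 with an edgeR adjusted p of 0.0121 and was not called. That block joins EDL and soleus libraries of differing age. Within codes, psoas differed from EDL by 2.46 in T4, 2.05 in T5 and 2.70 in T6 on the log2 scale, and soleus from EDL by 3.81 in T4 and 3.13 in T6. Soleus against psoas gave 1.04 (SE 0.41, edgeR adjusted p = 0.315).

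The other copies gave like values. Gm10591, with the letters of Ccl21b, had the same number of reads as Ccl21b in 5 of 13 libraries, and the ratio of the counts ran from 0.934 to 1.12. Gm21541 had normalized counts of 7.96 to 24.7 in EDL, 64.1 to 219 in psoas and 236 to 256 in soleus, and Gm13304 stood at 0.932 to 1.08 times these. Their log2 fold changes against EDL were 2.72 and 2.65 in psoas and 3.75 and 3.70 in soleus, all called. How the counting placed reads that match several entries is not given in the sources used here, so the split of reads between the entries is uncertain. Summed to 1 entry, the 5 gave 2.75 in psoas against EDL, 3.86 in soleus against EDL and 1.11 in soleus against psoas.

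Most markers of lymphatic endothelium, the lining of lymph vessels, were like Ccl21 higher in psoas and soleus than in EDL. Of the 5 in the list (Prox1, Flt4, Pdpn, Mmrn1 and Reln), all were in the table, and 4 were called as higher in both psoas and soleus than in EDL, the exception being Pdpn, with edgeR adjusted p of 0.0245 and 0.772. Mmrn1 had log2 fold changes of 3.13 and 3.99, and Prox1, the transcription factor of lymphatic identity, of 2.17 and 2.69. The summed normalized count of the list was 277 to 426 in EDL, 1014 to 2132 in psoas and 1314 to 2182 in soleus, and no marker was at 0 in any library. Per 100 of these marker counts, Ccl21a had 6.49 to 13.2 counts in EDL, 8.70 to 29.7 in psoas and 30.5 to 36.9 in soleus. Within psoas the markers and Ccl21a did not rank alike. Psoas 1 had the highest marker sum, 2132, with 185 counts of Ccl21a, while psoas 5 had 1238 and 367. The part of lymphatic vessel content in the Ccl21 result was not tested.

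**Figure D2:**
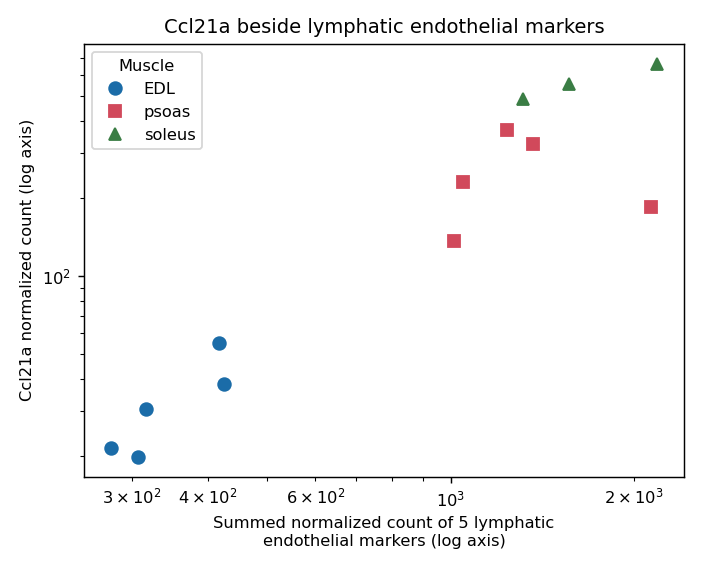
Ccl21a normalized count against the summed normalized count of 5 lymphatic endothelial markers, both on log axes, 1 point per library. EDL libraries (circles) lie at 277 to 426 on the marker axis and under 55 on the Ccl21a axis, apart from psoas (squares) and soleus (triangles), which overlap each other on the marker axis but not on the Ccl21a axis.

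The other homeostatic ligands of lymphoid organs did not share this pattern at the threshold. Ccl19, the second ligand of Ccr7, had normalized counts of 4.58 to 31.5 and log2 fold changes of 0.79 in psoas against EDL (edgeR adjusted p = 0.29) and 0.95 in soleus against EDL (edgeR adjusted p = 0.477). Cxcl13, which attracts B cells to follicles, ranged from 2.71 in EDL 5 to 618 in psoas 2. Its counts in EDL were 6.81, 104, 19.9, 12.0 and 2.71, in psoas 106, 618, 62.3, 4.34 and 17.4, and in soleus 108, 62.9 and 17.2. The groups overlapped, and the log2 fold change in psoas against EDL was 2.40 (SE 1.11, edgeR adjusted p = 0.144). It was 0.68 (edgeR adjusted p = 0.687) without psoas 2. With the replicate number as a block it was 2.20 (edgeR adjusted p = 0.0266), also not called. Of 8 B cell markers 4 were in the table, summing to 16.6 to 28.3 in EDL, 61.4 to 191 in psoas and 20.0 to 48.1 in soleus; Pax5 and Ms4a1 were called as higher in psoas than in EDL, Cd79a was not analysed here, and the part of B cells in the values of Cxcl13 was not tested.

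The receptor that is closest to Ccl21 among the members is Ackr4, a scavenger of Ccl19, Ccl21 and Ccl25. Its normalized counts were 31.9, 58.7, 41.8, 42.5 and 52.8 in EDL, 42.4, 67.8, 44.9, 69.5 and 101 in psoas, and 28.6, 50.7 and 29.2 in soleus. The muscles overlapped, and no fold change was called. The lowest p was that of soleus against psoas, with a log2 fold change of -0.83 (SE 0.36, edgeR adjusted p = 0.354), -0.79 within T4 and -1.47 within T6. Its exons overlap those of Acad11 on the other strand. Ccl25, a ligand of Ccr9 known from the gut, had low counts, 40.0, 35.7, 23.9, 26.1 and 35.2 in EDL, 20.5, 26.2, 16.5, 17.4 and 20.7 in psoas and 17.8, 12.9 and 22.4 in soleus. Every soleus library lay below every EDL library, with a log2 fold change of -0.89 (SE 0.34, edgeR adjusted p = 0.205), -1.18 within T4 and -0.40 within T6. In psoas against EDL it was -0.67 (SE 0.28, edgeR adjusted p = 0.11), between -0.63 and -0.46 within codes. Its exons overlap those of Elavl1 on the other strand, and since the strand setting of the counting is not given in the sources used here, the reads of the pair cannot be told apart.

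Ackr1, which carries chemokines across the wall of venules and is also found on red blood cells, was highest in soleus. Normalized counts were 51.1, 47.2, 27.9, 32.7 and 24.4 in EDL, 40.1, 59.3, 13.7, 33.0 and 32.3 in psoas and 106, 97.8 and 73.9 in soleus. All 3 soleus libraries lay above the 10 others, and EDL and psoas overlapped. The log2 fold change was 1.32 (SE 0.38, edgeR adjusted p = 0.078) against EDL and 1.38 (SE 0.38, edgeR adjusted p = 0.145) against psoas, neither called. Within T4 and T6 the difference was 1.06 and 1.36 against EDL, and 0.78 and 1.15 against psoas. The summed count of 5 red blood cell markers was 97.6 to 577 in EDL, 49.5 to 6636 in psoas and 216 to 1334 in soleus, and that of 9 blood endothelial markers 2236 to 5559, 2904 to 4349 and 4501 to 5929. Vwf, a protein of the endothelium of larger vessels, was the only one of the latter called, as higher in psoas (1.42) and in soleus (1.62) than in EDL. Their part in the level of Ackr1 was not tested. An exon of Ackr1 overlaps one of Cadm3 on the same strand, and Cadm3 had 61.7 to 184 normalized counts in EDL, 98.9 to 248 in psoas and 144 to 249 in soleus.

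Ackr3, the scavenger of Cxcl12, was the most even member, with an SD within muscles of 0.22 on the log2 CPM scale. Its normalized counts were 615, 514, 675, 639 and 680 in EDL, 303, 395, 365, 444 and 541 in psoas and 551, 573 and 638 in soleus. Only psoas 5 reached the range of EDL, and all soleus libraries lay above all psoas libraries. In psoas against EDL the log2 fold change was -0.61 (SE 0.17, edgeR adjusted p = 0.0221), with -0.41, -0.89 and -0.42 within T4, T5 and T6, and was not called. Soleus against psoas gave 0.53 (SE 0.19, edgeR adjusted p = 0.264), with 0.52 within T4 and 0.38 within T6. The ligand Cxcl12, a homeostatic chemokine that retains progenitor cells, had normalized counts of 470, 571, 534, 663 and 342 in EDL, 782, 746, 425, 568 and 472 in psoas and 696, 1005 and 614 in soleus. The muscles overlapped. Its log2 fold change in soleus against EDL was 0.59 (SE 0.26, edgeR adjusted p = 0.291), 0.53 within T4 and 0.38 within T6.

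Cxcr4, the signalling receptor of Cxcl12 on leukocytes and progenitors, had normalized counts of 77.1, 78.5, 13.9, 27.2 and 33.8 in EDL, 108, 203, 62.3, 99.9 and 59.7 in psoas and 45.5, 61.4 and 22.4 in soleus. The groups overlapped, but in each code with both muscles psoas was above EDL, by 1.32 in T4, 2.04 in T5 and 1.32 in T6 on the log2 scale. The log2 fold change in psoas against EDL was 1.16 (SE 0.46, edgeR adjusted p = 0.095) and not called. A block for the label code made it a call (edgeR adjusted p = 0.00381), while leaving out psoas 2 gave 0.80 (edgeR adjusted p = 0.277). With the replicate number as a block it was 1.28 (edgeR adjusted p = 0.0108) and not called. In soleus against psoas the log2 fold change was -1.27 (SE 0.56, edgeR adjusted p = 0.361), -1.90 within T4 and -1.72 within T6.

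**Figure D3:**
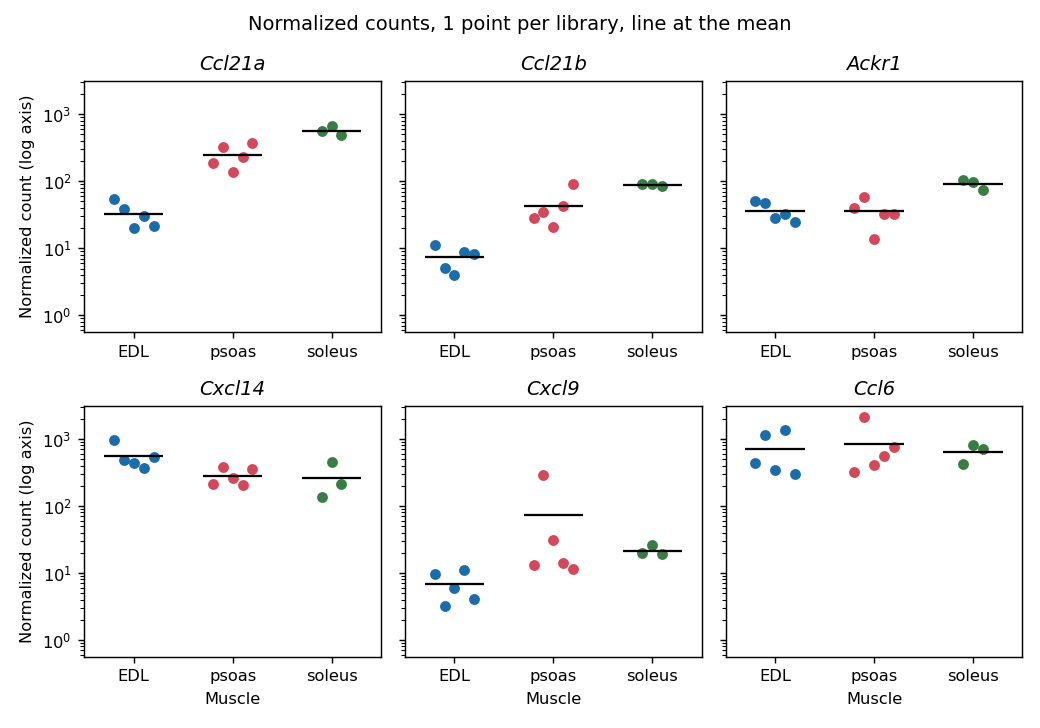
Normalized counts of 6 genes on a log axis, 1 point per library and a line at the mean of each muscle (EDL n = 5, psoas n = 5, soleus n = 3). Ccl21a and Ccl21b step up from EDL to psoas and soleus, Ackr1 is highest in the 3 soleus libraries, and 1 psoas library sets the psoas mean of Cxcl9.

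Cxcl14, a homeostatic chemokine known from skin and mucosa, had its highest mean in EDL. Normalized counts were 959, 481, 434, 364 and 546 in EDL, 211, 384, 257, 203 and 356 in psoas and 136, 448 and 210 in soleus. EDL 4 lay within the range of psoas, and soleus 2 within that of EDL. The log2 fold change was -0.98 (SE 0.33, edgeR adjusted p = 0.0544) in psoas and -1.06 (SE 0.40, edgeR adjusted p = 0.192) in soleus, both against EDL and not called. Without soleus 2 the latter was -1.69. With the replicate number as a block, psoas against EDL gave -0.93 (edgeR adjusted p = 0.023), also not called. Within codes the log2 difference from EDL lay between -0.76 and -0.36 for psoas, and was -0.98 and -1.07 for soleus.

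Cxcr2, a receptor of neutrophil-attracting ligands, had normalized counts of 386, 334, 643, 160 and 141 in EDL, 189, 216, 273, 168 and 143 in psoas and 134, 152 and 172 in soleus. The groups overlapped, and the difference between soleus and EDL was -1.12 (SE 0.42, edgeR adjusted p = 0.193) on the log2 scale, with -1.24 within T4 and 0.21 within T6, so its sign was not the same in both codes. The only neutrophil-attracting ligand among the members, Cxcl1, had 2.71 to 37.6 normalized counts. Of 9 neutrophil markers 6 were in the table, summing to 111 to 675 in EDL, 112 to 2530 in psoas and 37.7 to 241 in soleus, with 0 called by edgeR and 2 by DESeq2, in soleus against psoas.

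The interferon-inducible ligands Cxcl9, Cxcl10 and Cxcl11, which attract T cells bearing Cxcr3, differed from each other. Cxcl9 had normalized counts of 9.79, 3.19, 5.97, 10.9 and 4.06 in EDL, 13.04, 292, 31.1, 13.9 and 11.6 in psoas and 19.9, 25.7 and 18.9 in soleus. All psoas and all soleus libraries lay above all EDL libraries, and psoas 2 stood far above the rest. In psoas against EDL the log2 fold change was 3.38 (SE 0.90, edgeR adjusted p = 0.02), and without psoas 2 it was 1.33 (edgeR adjusted p = 0.0806). With the replicate number as a block it was 2.11 (edgeR adjusted p = 0.1055), while DESeq2 gave no adjusted p. Within codes it was 5.96 in T4, which holds psoas 2, then 2.13 in T5 and 0.79 in T6. Cxcl10 had 1.35 to 108 normalized counts in EDL, with its 3 lowest values of all libraries in EDL 5, EDL 4 and psoas 5, all of code T6, and none of its fold changes was called. Its exons overlap those of Art3 on the other strand, which was called as lower in psoas (-1.35) and in soleus (-1.65) than in EDL. Cxcl11, annotated as a polymorphic pseudogene rather than as protein-coding, stayed at 0.92 to 12.0 normalized counts and was not tested.

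The level of the members was compared per exon length. Per 1000 exon bases, the highest mean over the 13 libraries was that of Ccl6, a macrophage product, at 415 normalized counts, a level higher than that of 91.2% of the genes in the table. It was followed by Ccl8 (326), Ccl21a (275), Cxcl14 (210), Ccl11 (176), Ccl9 (174), Ackr3 (159), Ccl21b (99.8), Cxcr2 (78.5) and Cxcl13 (76.4). Without psoas 2 the mean of Cxcl13 was 37.9 and its rank 12, and Cxcl12 took rank 10 with 72.8. Without the correction for length, Cxcl12 ranked 2 among the members, Ccl8 11, Cxcl13 13 and Ccl21b 23. In soleus alone, Ccl21a had the highest mean of all members on this scale, 653 ± 105 per 1000 bases (SD, n = 3), and Ccl6 had 362 ± 112, while in EDL Ccl21a had 38.0 ± 16.4 (n = 5).

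**Figure D4:**
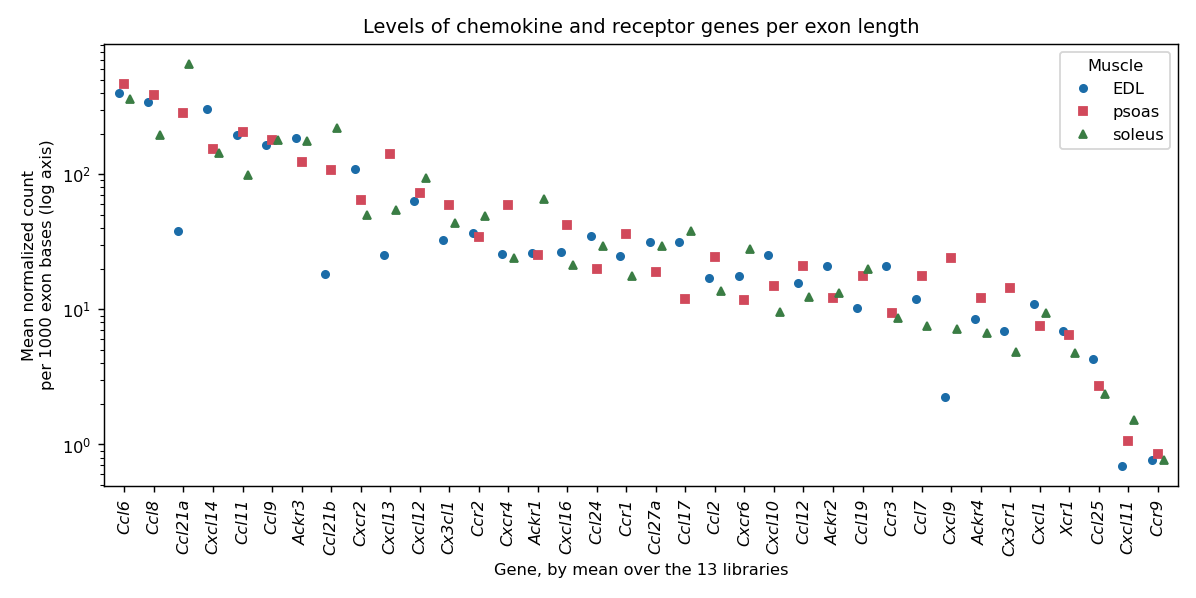
Mean normalized count per 1000 exon bases of 36 of the 37 genes in each muscle, on a log axis, ordered by the mean over the 13 libraries. Ccl6 lies between 362 and 464 in the 3 muscles, whereas Ccl21a runs from 38.0 in EDL (circles) to 653 in soleus (triangles).

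Ccl6 and Ccl9 are neighbours on chromosome 11 and are both made by macrophages and other myeloid cells. Ccl6 had normalized counts of 432, 1134, 344, 1353 and 304 in EDL, 324, 2118, 409, 557 and 758 in psoas and 427, 819 and 702 in soleus. For Ccl9 the values were 284, 794, 287, 884 and 268 in EDL, 168, 1271, 343, 340 and 612 in psoas and 376, 693 and 566 in soleus. In both genes psoas 2 was highest and EDL 4 second, and the muscles overlapped throughout, with log2 fold changes between -0.35 and 0.22 in the 3 comparisons. Without psoas 2 the sign in psoas against EDL turned, to -0.48 for Ccl6 and -0.46 for Ccl9, and soleus against psoas gave 0.35 and 0.58. Ccl8, which acts on monocytes, had 163, 103, 83.6, 489 and 39.2 in EDL, 35.9, 544, 38.5, 147 and 226 in psoas and 63.3, 44.3 and 189 in soleus, again with psoas 2 and EDL 4 on top. Its log2 fold change in psoas against EDL was 0.18, and -0.65 without psoas 2. The summed macrophage markers had the same 2 libraries on top, psoas 2 with 15838 and EDL 4 with 9371, and were 3299 to 9371 in EDL, 3974 to 15838 in psoas and 4636 to 6718 in soleus. By edgeR, 0 of the 13 macrophage markers were called in any comparison, with 2, 0 and 1 at an unadjusted p under 0.05 in psoas against EDL, soleus against EDL and soleus against psoas, and DESeq2 called 1 in the first. The part of macrophage content in these values was not tested.

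Ccl2, Ccl7 and Ccl12, the ligands of Ccr2 that draw monocytes into damaged tissue, stayed low, with 5.79 to 51.3, 0 to 22.4 and 2.86 to 22.4 normalized counts. Ccl11, an eosinophil attractant made by fibroblasts, had 338, 138, 241, 171 and 166 in EDL, 289, 132, 202, 223 and 258 in psoas and 101, 60.7 and 156 in soleus. Soleus 1 and 2 lay below all EDL and psoas libraries, while soleus 3 overlapped both groups. The log2 fold change of soleus was -1.01 (SE 0.36, edgeR adjusted p = 0.169) against EDL and -1.07 (SE 0.36, edgeR adjusted p = 0.234) against psoas. Within T4 and T6 it was -0.83 and -0.09 against EDL, and -0.73 and -0.61 against psoas. Ccl24, a related eosinophil attractant, had 11.0 to 88.2 normalized counts with no call.

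Among the receptors of these ligands, Ccr2, which marks inflammatory monocytes, had the highest counts, 55.5 to 733, the lowest in EDL 5 and the highest in EDL 4. Ccr1 had 9.95 to 209 and Ccr3, the eosinophil receptor, 2.71 to 307. Ccr3 had its highest value in EDL 4 and the next in soleus 3 and psoas 4, all of code T6, which also holds its lowest, EDL 5. These genes lie in a cluster on chromosome 9 that also holds Ccr9, Cxcr6 and Xcr1. None was called, and the SD within muscles on the log2 CPM scale was 1.12 for Ccr2 and 2.03 for Ccr3, against a median of 0.90 over the 36 members and 0.46 over all genes tested. Cx3cr1, the receptor of patrolling monocytes, had 7.86 to 175 normalized counts, and its membrane-bound ligand Cx3cl1 65.7 to 379, both highest in psoas 4.

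Ccl17, which attracts T cells bearing Ccr4, had few counts. They were 11.9, 8.29, 27.9, 12.0 and 20.3 in EDL, 6.99, 3.74, 3.66, 8.69 and 7.46 in psoas and 13.2, 10.7 and 34.4 in soleus. Psoas lay below soleus in every library and overlapped EDL by psoas 4 alone. The log2 fold change was -1.34 (SE 0.48, edgeR adjusted p = 0.0652) in psoas against EDL and 1.61 (SE 0.53, edgeR adjusted p = 0.22) in soleus against psoas, the latter 0.98 without soleus 3, with -0.94, -2.53 and -0.84 within T4, T5 and T6 for the first and 1.38 and 1.92 within T4 and T6 for the second. Ccl27a, known as a skin chemokine, ranged from 1.99 in EDL 3 to 256 in EDL 5. The next highest values were 122 in psoas 5, 112 in soleus 3 and 102 in EDL 4, all of code T6 like EDL 5. Psoas 4, also of T6, had 53.0, below the 82.8 of soleus 1. The exons of Ccl27a overlap those of Il11ra1 on the other strand. Cxcl16, the ligand of Cxcr6, had 47.8 to 231 normalized counts, Cxcr6 10.8 to 94.5, Ackr2 22.9 to 107, Xcr1 17.9 to 41.7 and Ccr9 1.09 to 25.1, with no call.

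Over the family, psoas libraries were all above EDL in 3 of 36 members (Ccl21a, Ccl21b and Cxcl9), where 6.48% of all genes tested showed this, and all below in 0, where 6.56% did. Soleus was above EDL in every library for 4 members (the same 3 and Ackr1), against 5.33% of all genes, and below for 1 (Ccl25), against 5.72%. Soleus was above psoas in every library for 5 members (Ccl21a, Ackr1, Ccl17, Ackr3 and Cxcr6), against 4.97% of all genes, and below for 0, against 5.19%. An unadjusted p under 0.05 was found for 11 of 36 members in psoas against EDL, against 33.3% of all genes, and for 8 of 36 in soleus against EDL, against 15.1%. At an adjusted p under 0.05 alone there were 4 members in the first comparison (18.1% of all genes), 2 in the second (3.43%) and 0 in soleus against psoas (0.633%). Ccl21a and Ccl21b, which share most of their sequence, stand as 2 members in the counts against EDL. The median log2 fold change of the members was 0.15 in psoas against EDL, -0.24 in soleus against EDL and -0.30 in soleus against psoas, beside 0.02, -0.03 and -0.03 over all genes tested. By limma the medians of the members were 0.21, 0.0026 and -0.22, so the value in soleus against EDL depends on the method.

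**Figure D5:**
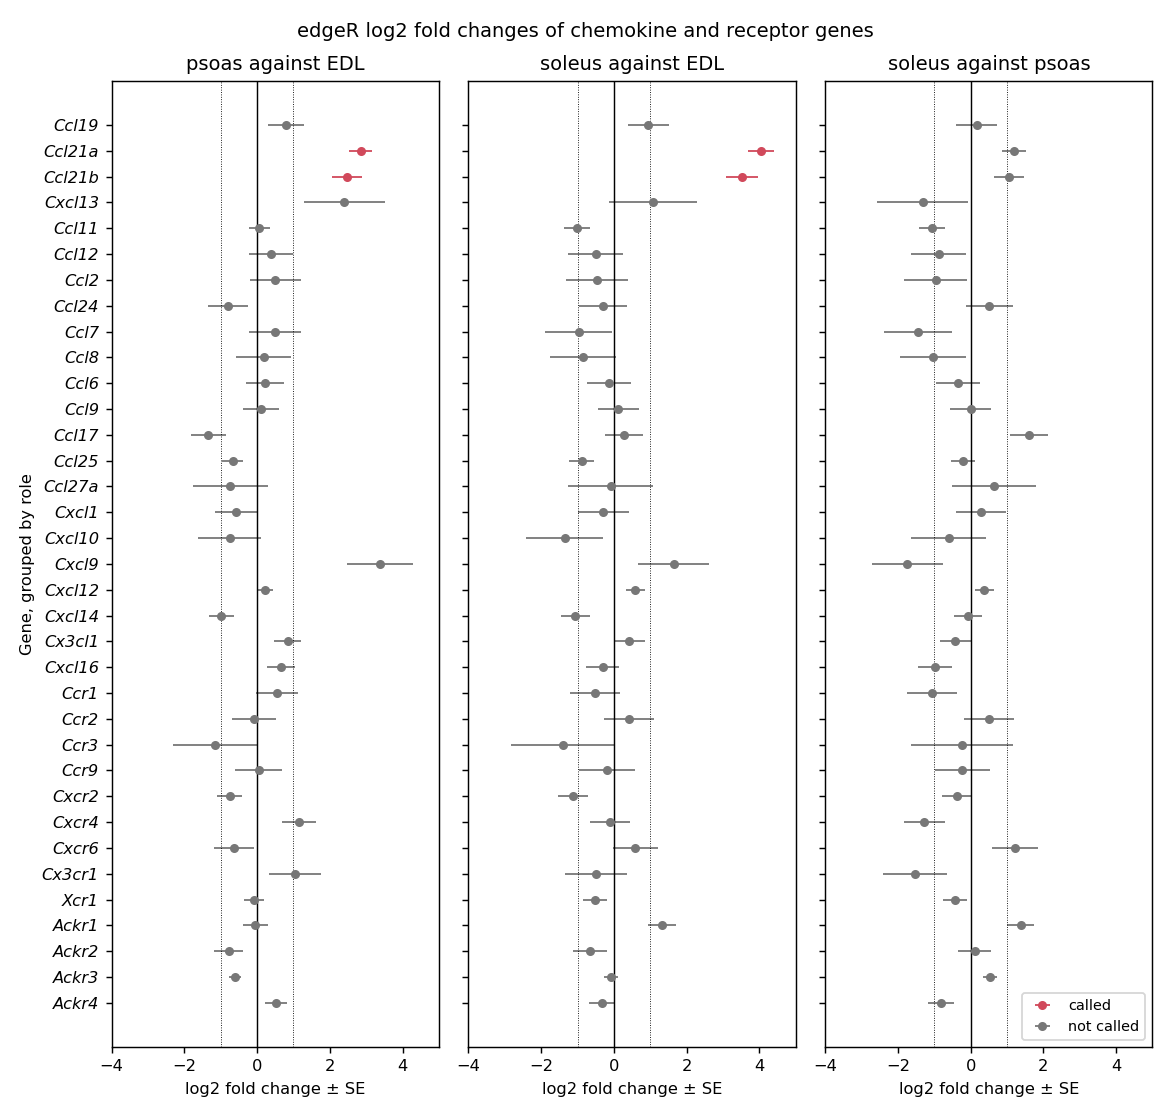
Log2 fold changes with standard errors, derived from the test statistic, of 35 of the 36 genes tested in the 3 comparisons, red where called. Ccl21a and Ccl21b stand at 2.49 to 4.05 against EDL, and the widest error bars belong to Ccr3, Ccl27a and Cxcl13 (solid line at 0, dotted lines at -1 and 1).

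For part of the family the highest values came from the same library. Psoas 2 had the highest value of the 13 libraries for 11 of the 36 members tested, against 9.16% of all genes tested. Among these were Ccl2, Ccl6, Ccl8, Ccl9, Ccl12, Ccr1, Cxcl9, Cxcl13, Cxcl16 and Cxcr4. Psoas 1 and psoas 3 were each highest for 0 members, against 15.4% and 5.21% of all genes tested. Without psoas 2 and EDL 4, the members called against EDL were again Ccl21a and Ccl21b, in psoas and in soleus.

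Genes that work with chemokines but fall outside the symbol rule were described by lists. None of the genes in the 4 lists below was called by edgeR, by DESeq2 or by limma in any of the 3 comparisons. Of 4 further ligands (Pf4, Ppbp, Rarres2 and Mif), 2 had an unadjusted p under 0.05 in psoas against EDL, and of 5 further receptors or receptor-like genes (Ccrl2, Cmklr1, Gpr1, Cmtm3 and Pitpnm3) 1 did. Rarres2, which encodes chemerin, had 276 to 381 normalized counts in EDL and 397 to 540 in soleus, with a log2 fold change of 0.48 (edgeR adjusted p = 0.336). Of 28 genes of receptor signalling, 27 were tested, with 6, 5 and 0 at an unadjusted p under 0.05 in psoas against EDL, soleus against EDL and soleus against psoas, and their median log2 fold change was 0.61 in psoas against EDL, -0.14 in soleus against EDL and -0.39 in soleus against psoas. Of 15 leukocyte adhesion genes, 14 were tested, with 4, 1 and 5 at an unadjusted p under 0.05 and medians of 0.77, -0.08 and -0.75.

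Marker lists of the other cells that make or read chemokines were counted the same way. Monocyte (6 of 7 in the table), dendritic cell (6 of 6), mast cell (7 of 7) and fibro-adipogenic progenitor markers (9 of 9) had 0 calls by edgeR, with 3, 2, 3 and 2 at an unadjusted p under 0.05 in psoas against EDL, and DESeq2 called 1 dendritic cell marker there. Of 7 NK cell markers 0 were in the table. Of 10 T cell markers 3 were in the table and 1 was tested, Cd4, called as higher in psoas than in EDL (2.42). In psoas against EDL, 6 of 7 mesothelial, 3 of 5 Schwann cell, 1 of 5 satellite cell and 1 of 6 smooth muscle and pericyte markers were called as higher, and 4 of 6 tenocyte and 3 of 11 muscle fibre markers as lower. In soleus against EDL, 4 of 7 adipocyte and 1 of 7 mesothelial markers were called as higher and 3 of 11 muscle fibre markers as lower. In soleus against psoas 0 markers of any list were called by edgeR, while DESeq2 called 4 mesothelial, 4 muscle fibre, 2 neutrophil and 1 satellite cell marker and limma 1 mesothelial and 1 satellite cell marker. Psoas differed from EDL in markers of several attached or embedded tissues at once, and the part of these in the chemokine values was not tested.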

How the data were processed

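RNA sequencing libraries of 13 *mdm* muscles were analysed. Before deposit, the authors trimmed paired reads of 75 bases with Trimmomatic 0.32 where base quality was low, aligned them with TopHat2 2.1.1 to GRCm38.p4, counted reads per gene and removed genes with low counts. The strand and multiple-match settings of the counting are not given in the sources used here. The deposited raw counts and the signal values, which the authors made by dividing the counts by DESeq2 size factors (the normalized counts), were used as deposited, and within each library the ratio of both was a single factor for all genes. Every entry of the tables names a gene.

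Genes with at least 10 normalized counts in 3 or more libraries (17069) were fitted to the counts with edgeR 4.0.16 (TMM scaling, quasi-likelihood test) under R 4.3.3, with 1 mean per muscle and the spread shared over all 13 libraries. The paper reports that its samples were sequenced in several runs, and its own model held a term for the run. The labels used here do not name the run, so the main fit has no such term. P-values were adjusted by Benjamini-Hochberg over all genes tested, and a call needed an adjusted p under 0.01 and a log2 fold change above 1 or below -1. Within-code differences use log2 CPM with a prior count of 2. Tests are two-sided. DESeq2 1.42.0, limma 3.58.1 on log2 values with a pseudocount of 1, other scalings and filters, blocks for replicate number or label code, and leaving out libraries were the alternatives. On simulated counts for psoas against EDL over 17069 genes, the fit recovered 99 of 100 genes set at a log2 fold change of 2 and 100 of 100 at 4. The changed genes were drawn from those with higher mean counts only, and the simulated spread was capped. The median SD within muscles was 0.90 for the members and 0.46 for all genes tested. This recovery therefore does not carry over to members with few counts or a wide spread.

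Total counts were 9114176 to 48835209 per library, so that a count of 3 or fewer was taken as the floor, which covers counting error only. Of 23 pairs of libraries of the same muscle none was a duplicate (smallest chi-square per degree of freedom 53.1). Replicates are separate libraries, and where the labels do not tie them to separate mice, p-values measure the spread between libraries. Same-numbered EDL and psoas libraries deviated together (correlations of 0.407, 0.37, 0.316, 0.289 and 0.371), and the replicate block treated them as pairs. The numbers of replicates 2 to 5 also share age and code. The libraries of replicate 1 cannot come from 1 mouse, as their ages differ (38 and 29 days). Their correlation (0.407) was still the highest of the EDL and psoas pairs, so these correlations do not identify mice. The EDL and soleus numbers did not pair (0.115, 0.421 and -0.162).

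Members and gene lists were chosen with earlier results of these data known. Genes given in full were those called with or without the replicate block, the 8 with the smallest p per comparison, the 10 with the highest level per exon length, and Ackr4 as the receptor of Ccl21 in the table. Exon lengths and positions are from GENCODE release 21, and RefSeq promoters matched 30 of the 37 genes. The values of 1 member are not reported here, though it was kept in the fits and counts.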

Additional observations from a re-analysis of the deposited data

Results flagged for a closer look

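For the 17 genes given in full, the values of EDL and of psoas (34 groups of 5 libraries) were searched for a library that stood far from the other 4, by Dixon's ratio above 0.71. There were 5 such values. The limit is one at which chance flags about 1 in 20 groups of normally distributed values. Here the ratio was taken on normalized counts and not on a log scale, where high values stand less far apart. These genes were also chosen on the same values, partly for their level. The number of such values therefore cannot be set against that rate. Psoas 2 held 3 of them: its normalized count was 2118 for Ccl6, against 324 to 758 in the other psoas libraries, 618.4 for Cxcl13, against 4.34 to 106, and 291.6 for Cxcl9, against 11.6 to 31.1. EDL 4 had 489 normalized counts of Ccl8, against 39.2 to 163 in the other EDL libraries, and EDL 2 had 104 of Cxcl13, against 2.71 to 19.9. In psoas 2 and EDL 4 the summed macrophage markers were also the highest of the 13 libraries, 15838 and 9371, and their part in these values was not tested.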

How the results depend on the processing

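The members called were 2 for psoas and 2 for soleus against EDL and 0 in soleus against psoas, and leaving out each library in turn gave 2 to 2, 2 to 2 and 0 to 0, with Ccl21a and Ccl21b called each time against EDL. Over all genes, the calls in soleus against EDL were 19 to 97 without any of the soleus libraries or EDL 1, 2, 3 or 5, and 120 to 182 without any of the others, beside 167, and those in psoas against EDL were 317 without EDL 3, 365 without psoas 2, 426 without EDL 5, 447 without psoas 1 and 1267 with the replicate block beside 841, so that the share of all genes set beside the members moves as well. Without a limit on the fold change and at an adjusted p under 0.05, there were 4 members in psoas against EDL, Ackr3 and Cxcl9 being added. With the replicate number as a block, psoas against EDL kept both members and soleus against EDL had 1. The block pairs the libraries of EDL and psoas, including those of replicate 1, whose ages differ. In soleus against EDL it joins libraries of differing age, 38 and 33, 38 and 36, and 42 and 38 days for replicates 1 to 3. Only replicate 2 shares a code there, and EDL 4 and 5 have no soleus library of their number. In that comparison Ccl21b was lost (edgeR adjusted p = 0.0121) and Ccl21a stayed called. The cause was not tested, and no other member's call changed. Scaling by library totals alone moved the median log2 fold change of all genes to 0.54, 0.33 and -0.18 in psoas against EDL, soleus against EDL and soleus against psoas, the share of calls that were higher from 49.4% to 92.9% in the first and from 54.5% to 77.7% in the second, and the median of the members to 0.67, 0.15 and -0.45, and it called Cxcl9 in psoas against EDL. Over all alternatives, within-code values included, the log2 fold change of Ccl21a was 2.67 to 3.44 for psoas and 3.86 to 4.42 for soleus, both against EDL. Of 659 alternative values of single members, 641 kept their direction and side of the threshold or moved by less than the spread between replicates, 4 became calls, 1 was lost, and 13 moved by more, with no called value changing sign. Part of the 659 could hardly move. Settings that change only the limits keep the log2 fold change, and leaving out a library of the muscle not compared barely alters it. Leaving out psoas 2 with EDL 4, the levels without psoas 2, and summing the Ccl21 entries, were chosen after seeing the data. Counts at or under 3 reads, as in Ccl21b of EDL 3, limit the precision of the fold changes of low genes.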
